A study of Mus musculus with 16 samples.

Results

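The genes described here are 10 members of the NRF2 antioxidant programme: *Nfe2l2*, *Keap1*, *Hmox1*, *Gclc*, *Gclm*, *Txnrd1*, *Srxn1*, *Prdx1*, *Slc7a11* and *Gsr*. They were found by gene symbol in a table of RNA-seq counts of cultured *db/db* islets, which lists 54532 genes, and each symbol matched 1 gene. *db/db* mice carry a mutation of the leptin receptor and are a model of type 2 diabetes. Islets were isolated from male mice aged 12–13 weeks, of the strain BKS(D)-Leprdb/JOrlRj, and were cultured for 1 day in 11 mmol/l glucose with 10 µmol/l adjudin (8 samples) or with its solvent DMSO (8 samples). All 16 samples carried the same genotype, and a sample stood for the islets of 1–2 mice. The labels number the samples by batch from 1 to 8, with 1 adjudin and 1 DMSO sample in each batch. Whether both samples of a batch came from the same mice was not given, so p-values measure the spread between these samples. All genes of the table were fitted together, with batch as a term, and 16910 genes had enough reads to be tested, including 10 of 10 members.

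NRF2, the product of *Nfe2l2*, is a transcription factor that KEAP1 holds in the cytoplasm and delivers for degradation. Oxidants and electrophiles modify cysteines of KEAP1, after which NRF2 accumulates, pairs with a small MAF protein and binds antioxidant response elements beside genes for glutathione synthesis, thioredoxin-dependent reduction and heme breakdown. Beta cells are known for low levels of catalase and glutathione peroxidase, and they rely largely on peroxiredoxins and thioredoxin to remove hydrogen peroxide.

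The binding element is what the targets of this programme share, and its core letters are therefore shown for the members in which they were found near the start. RefSeq promoter windows of the build GRCm38.p6, each with 250 bases before and 50 bases after a transcription start, were matched by symbol for 7 of the 10 members. These were *Nfe2l2*, *Keap1*, *Gclm*, *Txnrd1*, *Srxn1*, *Prdx1* and *Slc7a11*. The core TGACNNNGC, searched on both strands, was found in 5 of the 9 windows of these genes, and in 12.4% of all 32851 windows. Each site is printed 5′ to 3′ along the strand of its gene with the core in capitals.
*Nfe2l2*, chr2:75704875-75704913, minus strand: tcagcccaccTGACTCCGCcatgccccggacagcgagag
*Gclm*, chr3:122245403-122245451, plus strand: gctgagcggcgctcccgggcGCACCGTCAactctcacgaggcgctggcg
*Prdx1*, chr4:116685446-116685494, plus strand: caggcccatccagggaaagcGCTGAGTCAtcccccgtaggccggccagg
*Txnrd1*, chr10:82859094-82859142, plus strand: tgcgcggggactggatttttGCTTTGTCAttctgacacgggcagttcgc
*Srxn1*, chr2:152105542-152105570, plus strand: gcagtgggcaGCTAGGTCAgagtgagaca
The cores of *Gclm*, *Prdx1*, *Txnrd1* and *Srxn1* lie on the strand opposite to the gene, and their capitals therefore read as the reverse complement. The core began 240 bases before the start in *Nfe2l2*, 134 bases in *Gclm*, 133 bases in *Prdx1* and 92 bases in *Txnrd1*, and 28 bases after the start in *Srxn1*. *Txnrd1* had 3 windows for its alternative starts, and 1 of them held a core. A stricter form of the core, TGACTCAGC, contains the AP-1 motif TGACTCA. It was found in *Prdx1* alone among the members and in 0.454% of all windows. Among 27 other NRF2 targets with a window, 7 held the core. These matches describe letters only, and no binding was measured.

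Total counts were 24852862–34471164 in adjudin samples and 24190102–32675186 in DMSO samples, and the 10 members together took 0.151–0.176% of the counts of a library. Levels are given as CPM, the reads of a gene scaled to a common library size with TMM factors. The tissue was checked against its markers: *Ins2* averaged 53800 CPM in adjudin samples and 52540 CPM in DMSO samples, and *Gcg* averaged 8639 CPM in adjudin samples and 7805 CPM in DMSO samples. Islets in culture also hold other cells, and some of their markers were nearly as high as *Gcg*. *Ctrb1* of acinar cells averaged 6801 CPM in adjudin samples and 6928 CPM in DMSO samples. In the same order, *Col1a1* of fibroblasts averaged 4821 and 5147 CPM, and *Spp1* of ducts averaged 2460 and 2280 CPM. *Lyz2* of macrophages averaged 238.3 and 336.7 CPM, and *Plvap* of endothelium averaged 100.3 and 93.6 CPM. The levels given here are therefore those of a mixture of cells. In such bulk samples fewer cells of a type and less RNA per cell cannot be told apart. The 4 libraries of batches 2 and 3 stood apart from the other 12: they were all above the rest for 2235 genes, which is 13.2% of the genes tested, and all below for 1556 genes (9.20%). Both batches hold 1 sample of each treatment, and values without them are given beside some of the results.

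Members spanned a wide range of levels in DMSO-cultured *db/db* islets. Per kilobase of gene model, *Prdx1*, the cytosolic peroxiredoxin that reduces hydrogen peroxide, was the most abundant member with 155.3 ± 44.1 CPM per kilobase (SD, n = 8). *Hmox1*, the heme-degrading enzyme heme oxygenase 1, followed with 100.7 ± 13.2 CPM per kilobase. The ranges of these 2 genes overlapped, but *Prdx1* was above *Hmox1* in 8 of 8 samples. *Txnrd1*, the cytosolic thioredoxin reductase, had 50.1 ± 6.40 CPM per kilobase, and *Srxn1*, the sulfiredoxin that repairs overoxidised peroxiredoxins, had 47.7 ± 3.91 CPM per kilobase. Their order was not stable, since *Txnrd1* was the higher one in 5 of 8 samples.

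*Nfe2l2* itself had 31.1 ± 2.41 CPM per kilobase, and *Gsr*, the enzyme that regenerates reduced glutathione, had 30.6 ± 2.23 CPM per kilobase. They did not differ beyond their spread, with *Nfe2l2* above *Gsr* in 4 of 8 samples. The subunits of glutamate–cysteine ligase, which catalyses the first step of glutathione synthesis, came next, and their ranges overlapped. The modifier subunit *Gclm* had 22.0 ± 1.79 CPM per kilobase and the catalytic subunit *Gclc* had 20.5 ± 2.58 CPM per kilobase, with *Gclm* above in 6 of 8 samples. *Keap1* had 13.4 ± 1.11 CPM per kilobase, below every member named so far in 8 of 8 samples. *Slc7a11*, the cystine–glutamate antiporter that supplies cysteine for glutathione, was the lowest member with 1.91 ± 0.55 CPM per kilobase, over a gene model of 13922 bases. The lengths are those of the deposited table, which count every annotated exon, so that genes with long alternative transcripts rank low on this scale.

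**Figure D1:**
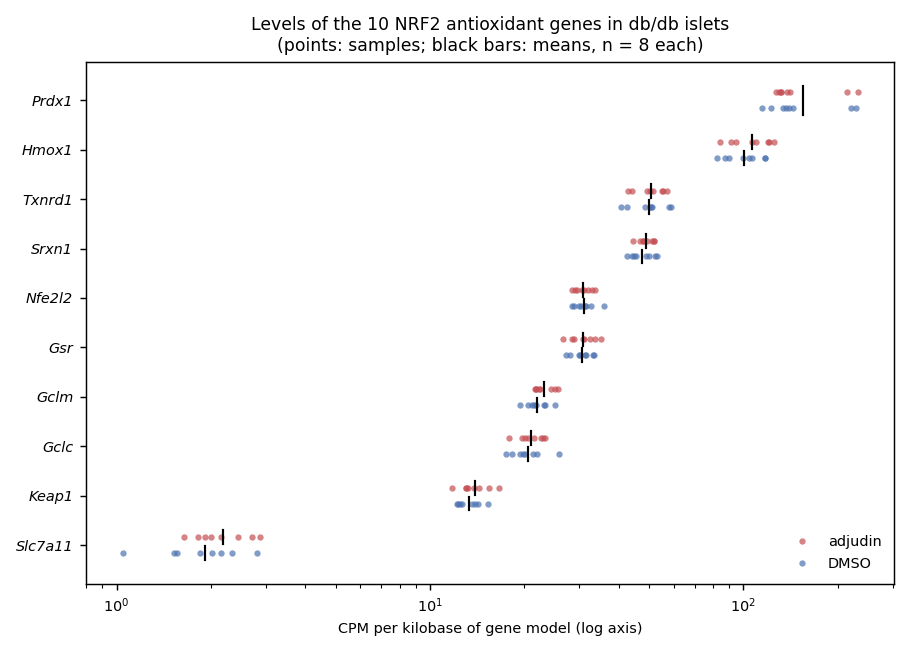
Level of each member in CPM per kilobase of gene model (log axis), with 8 adjudin samples (upper points of each gene) and 8 DMSO samples (lower points), and black bars for the means. *Prdx1* and *Hmox1* lie highest, *Slc7a11* lies lowest at 1.05–2.81 CPM per kilobase in DMSO samples, and the points of both treatments overlap for every member.

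Most members were steady between batches, and *Slc7a11* and *Prdx1* were not. The SD of log2 CPM over the 8 DMSO samples was 0.44 for *Slc7a11* and 0.37 for *Prdx1*, against 0.11–0.19 for the other 8 members. The median of this SD was 0.25 over all genes tested and 0.19 over the 9085 genes whose mean log2 CPM reached 4. Among those 9085 genes *Slc7a11* stood at percentile 96 and *Prdx1* at percentile 92.1 of this SD, and *Gsr* was the steadiest member at percentile 12.8. The highest DMSO sample had 2.68 times the CPM of the lowest one for *Slc7a11*, and 2.00 times for *Prdx1*. The DMSO sample of batch 5 held the highest level of 5 members, and that of batch 3 the lowest level of 5 members.

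The spread of *Prdx1* followed batches 2 and 3. Its CPM in batch 2 was 651.7 with adjudin and 670.4 with DMSO, and in batch 3 it was 705 with adjudin and 698.1 with DMSO. In the other 12 libraries *Prdx1* lay between 349.1 and 439.2 CPM, so that the ranges did not overlap. *Txnrd1* and *Gsr* went the other way. *Txnrd1* had 288.5–312.1 CPM in the 4 libraries of batches 2 and 3 and 345.3–417.1 CPM in the other 12, and *Gsr* had 72.96–78.29 CPM in those 4 libraries and 79.57–96.79 CPM in the other 12. *Prdx1* was the 1 member of 10 above the rest in all 4 libraries, and *Txnrd1* and *Gsr* were the 2 members below. Over all genes tested, 13.2% were above and 9.20% were below in the same way. For the other 7 members the ranges overlapped. The mean of *Slc7a11* was 29.6 CPM in batches 2 and 3 and 28.2 CPM in the rest.

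No member passed the threshold for a change with adjudin. At an adjusted p under 0.05 (edgeR quasi-likelihood test, Benjamini–Hochberg over all genes tested), 0 of 10 members were upregulated and 0 were downregulated. Over all genes 5.24% passed, 2.17% upwards and 3.07% downwards. At an unadjusted p under 0.05, 3 of 10 members passed, *Slc7a11*, *Gclm* and *Hmox1*, each with a higher level with adjudin. This unadjusted threshold was passed by 21.0% of all genes and in the upward direction by 10.1%. DESeq2 and limma-voom with the same batch term called 0 members at an adjusted p under 0.05. The fitted log2 fold change was above 0 in 9 of 10 members, with a median of 0.040, whereas 51.4% of all genes were above 0 with a median of 0.0032. Of the 80 pairs of a member and a batch, 56 were higher with adjudin, and the members of a batch share their libraries. A tested gene was higher with adjudin in 3.996 of 8 batches on average. Of all genes tested, 9.63% were higher in 7 or 8 batches. The summed level of the members was 1545–1764 CPM in adjudin samples (median 1700) and 1495–1741 CPM in DMSO samples (median 1646), and the sum was higher with adjudin in 7 of 8 batches.

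**Figure D2:**
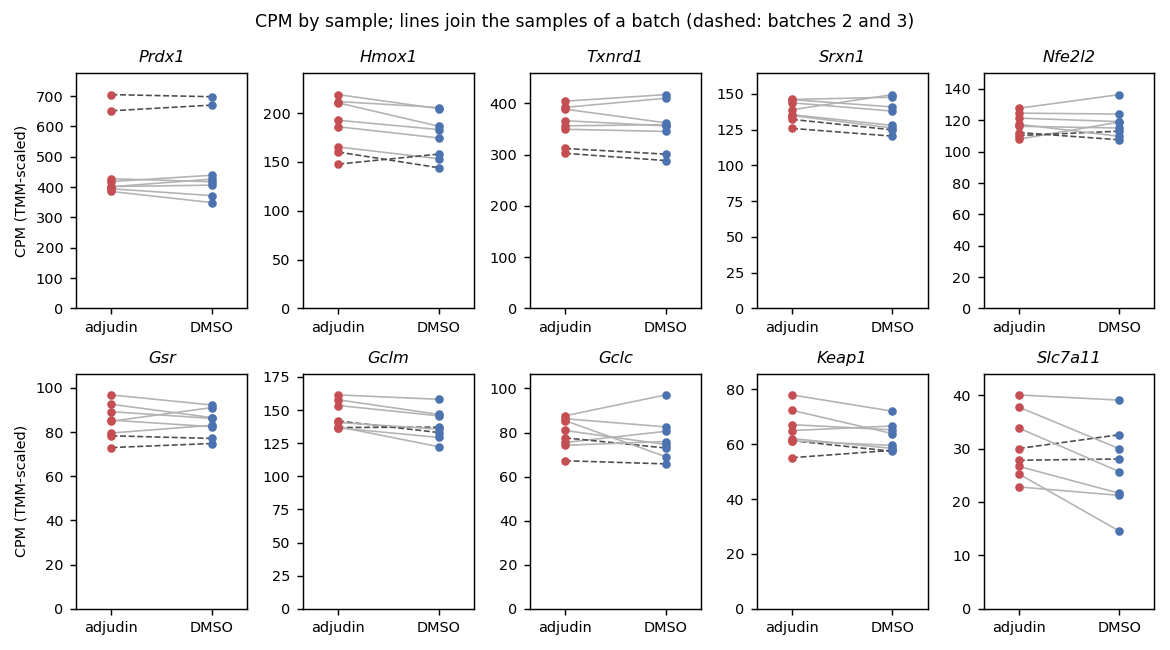
CPM of each member by sample, with adjudin on the left and DMSO on the right of each panel, axes starting at 0 and lines joining the 2 samples of a batch (dashed for batches 2 and 3). Most lines are close to level, *Prdx1* in batches 2 and 3 lies at 651.7–705 CPM, and *Slc7a11* shows its steepest line in batch 8 with 25.3 CPM with adjudin and 14.6 CPM with DMSO.

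*Slc7a11* had the largest fold change of the members. Its lowest, median and highest CPM were 22.8, 28.9 and 40.1 in adjudin samples and 14.6, 26.9 and 39.1 in DMSO samples. The groups overlapped over most of their range, and the lowest value belonged to the DMSO sample of batch 8. The mean was 30.5 ± 6.14 CPM with adjudin and 26.6 ± 7.60 CPM with DMSO (SD, n = 8 each). The log2 fold change was 0.22 with an SE of 0.074 and a 95% interval of 0.064 to 0.38, which is 16.6% higher with an interval of 4.52% to 29.99%. The edgeR p was 0.00878 and the adjusted p was 0.0961.

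The difference of *Slc7a11* was uneven between batches and was higher with adjudin in 6 of 8. On the log2 scale it was 0.79 in batch 8, 0.40 in batch 6, 0.33 in batch 4 and 0.30 in batch 7. In batch 1 it was 0.10 and in batch 5 it was 0.04, whereas batches 2 and 3 had -0.12 and -0.01. Batch 8, with the largest difference, held the lowest DMSO level. Batch 5, with the highest DMSO level, had 40.1 CPM with adjudin and 39.1 CPM with DMSO. Without batch 8 the log2 fold change was 0.15, and without batches 2 and 3 it was 0.32 with an adjusted p of 0.059. Among all alternatives run, the adjusted p was under 0.05 only when genes with low counts were kept in the fit (log2 fold change 0.23, edgeR adjusted p 1.57e-04).

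SLC7A11 works as a pair with the heavy chain SLC3A2. *Slc3a2* had 240.2, 273.4 and 284.7 CPM (lowest, median and highest) in adjudin samples and 241.6, 271.4 and 306.2 CPM in DMSO samples, and it was higher with adjudin in 4 of 8 batches. The ratio of *Slc7a11* to *Slc3a2* averaged 0.115 in adjudin samples and 0.1003 in DMSO samples, with ranges of 0.081–0.148 in adjudin samples and 0.050–0.142 in DMSO samples. Its mean log2 difference was 0.24 ± 0.32 (SD over 8 batches), higher with adjudin in 6 of 8. The exact two-sided sign-flip test over batches gave p = 0.0781, or 0.3125 after adjustment over the 4 ratios tested, and the smallest p it can give is 0.00781. The ratio was lower with adjudin in batches 2 and 3, and without both of them the mean difference was 0.34. The sign-flip p was then 0.0312, the smallest it can give with 6 batches. This fit was chosen after seeing the data and drops the batches with a lower ratio, so its p is no independent test.

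*Hmox1* had 147.8, 189.4 and 219 CPM (lowest, median and highest) in adjudin samples and 144.1, 178.9 and 205.8 CPM in DMSO samples. The groups overlapped, and the adjudin sample was the higher one in 7 of 8 batches, batch 2 being the exception. The log2 fold change was 0.081 with an SE of 0.031 and a 95% interval of 0.015 to 0.15, or 5.77% higher. The edgeR p was 0.0185 and the adjusted p was 0.141. Single batches ranged between -0.10 in batch 2 and 0.17 in batch 6. *Hmox1* was lower in batches 2 and 3, with a mean of 152.6 CPM, than in the rest, with a mean of 191.1 CPM, although the ranges overlapped. Without batch 2 the adjusted p was 0.0561, and without batch 3 it was 0.292. These were its smallest and largest values with 1 batch left out. Without batches 2 and 3 the log2 fold change was 0.10 with an adjusted p of 0.149.

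Heme oxygenase 1 is also made by macrophages, and macrophage markers fell with adjudin. Over all genes tested 3.07% fell and 2.17% rose. Of 18 macrophage markers, 15 fell and 0 rose, with a median log2 fold change of -0.39. The genes that fell were *Adgre1*, *Cd68*, *Csf1r*, *C1qa*, *C1qb*, *C1qc*, *Lyz2*, *Fcgr1*, *Aif1*, *Cx3cr1*, *Mpeg1*, *Trem2*, *Ctss*, *Tyrobp* and *Laptm5*. The summed level of the markers was 963.4–1266 CPM in adjudin samples (median 1011) and 983.4–1754 CPM in DMSO samples (median 1417), lower with adjudin in 8 of 8 batches. No marker of the list was at 0 in any library, and 12 markers passed without batches 2 and 3. Of 11 stellate and fibroblast markers 7 fell, namely *Col3a1*, *Lum*, *Pdgfra*, *Acta2*, *Thy1*, *Postn* and *Rgs5*, and 4 passed without batches 2 and 3. Of 9 beta cell markers 3 rose, namely *Pdx1*, *Nkx6-1* and *G6pc2*, and 0 passed without batches 2 and 3. No marker of alpha, delta, endothelial, ductal or acinar cells passed in the reported edgeR fit. With no filter on low counts 1577 of all genes passed, and 2 alpha, 2 delta, 2 endothelial, 3 ductal and 7 acinar markers. With 1 batch left out, up to 1 delta, 2 endothelial, 1 ductal and 3 acinar markers passed. In the reported fit 21.0% of all genes had an unadjusted p under 0.05. This held for 0 of 5 alpha markers, 2 of 3 delta markers (2 higher with adjudin) and 3 of 7 endothelial markers (3 higher). It also held for 4 of 6 ductal markers (1 higher, 3 lower) and 3 of 7 acinar markers (3 lower). DESeq2 called 1 delta and limma-voom 1 acinar marker at an adjusted p under 0.05. The part of these shifts in the levels of *Hmox1* and of the other members was not tested.

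Among the enzymes of glutathione synthesis, *Gclm* had the more even difference. Its lowest, median and highest CPM were 136.5, 141.1 and 161.4 in adjudin samples and 122.3, 136.4 and 158.1 in DMSO samples. The ranges overlapped, and *Gclm* was higher with adjudin in 7 of 8 batches, with batch 3 close to 0. The log2 fold change was 0.074 with an SE of 0.027 and a 95% interval of 0.017 to 0.13, or 5.28% higher. The edgeR p was 0.0137 and the adjusted p was 0.12. *Gclc* had 67.2, 79.3 and 87.6 CPM in adjudin samples and 65.8, 75.3 and 97.1 CPM in DMSO samples, with no separation of the groups. Its log2 fold change was 0.041, with an interval of -0.046 to 0.13 and an adjusted p of 0.615 (edgeR). Single batches of *Gclc* ranged between -0.15 in batch 5 and 0.31 in batch 8, and without batch 8 the log2 fold change was 0.0059. The ratio of *Gclm* to *Gclc* averaged 1.84 in adjudin samples and 1.80 in DMSO samples, with a mean log2 difference of 0.033 ± 0.11 (SD, 8 batches, exact sign-flip p = 0.391, adjusted p = 0.391).

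*Gsr*, which recycles oxidised glutathione with NADPH, had 72.96, 85.1 and 96.8 CPM in adjudin samples and 74.8, 84.6 and 92.2 CPM in DMSO samples. The adjudin range covered the whole DMSO range. The log2 fold change was 0.011 with an SE of 0.029 and an interval of -0.050 to 0.073, and the difference was positive in 5 of 8 batches (edgeR adjusted p = 0.869).

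The thioredoxin branch showed small differences. *Txnrd1* had 302.6, 361.1 and 404.3 CPM in adjudin samples and 288.5, 357.4 and 417.1 CPM in DMSO samples, and the groups overlapped almost entirely. Its log2 fold change was 0.020, with an interval of -0.039 to 0.079 and an adjusted p of 0.736 (edgeR). *Prdx1* had 385.6, 410.2 and 705 CPM in adjudin samples and 349.1, 422.1 and 698.1 CPM in DMSO samples. It was higher with adjudin in 4 of 8 batches, and its log2 fold change was 0.0077 with an interval of -0.057 to 0.072 (edgeR adjusted p = 0.920). The sign of this value was not stable, as upper-quartile scaling gave -0.00072. *Srxn1* had 125.8, 137.1 and 146 CPM in adjudin samples and 120.4, 132.9 and 149.4 CPM in DMSO samples. The adjudin range lay inside the DMSO range. *Srxn1* was higher with adjudin in 6 of 8 batches, with a log2 fold change of 0.039, an interval of -0.022 to 0.0995 and an adjusted p of 0.478 (edgeR). The ratio of *Srxn1* to its substrate *Prdx1* averaged 0.309 in adjudin samples and 0.304 in DMSO samples, with a mean log2 difference of 0.031 ± 0.094 (SD, 8 batches, exact sign-flip p = 0.383, adjusted p = 0.391).

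**Figure D3:**
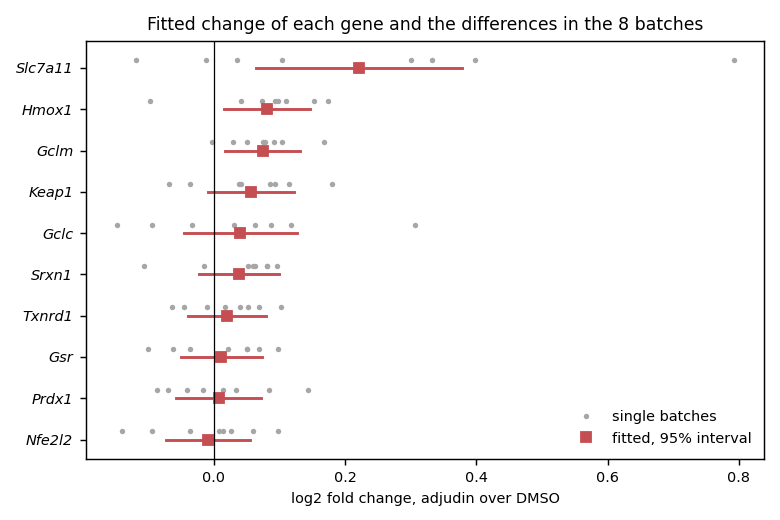
Fitted log2 fold change of each member, adjudin over DMSO (squares, with 95% intervals as lines), with the differences in the 8 single batches as grey points. The interval lies above 0 for *Slc7a11*, *Hmox1* and *Gclm* before adjustment over genes, and 9 of 10 intervals lie within 0.2 of 0 on the log2 scale.

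The factor and the sensor of the pathway also had small fitted differences. *Nfe2l2* had 108, 116.8 and 127.7 CPM in adjudin samples and 107.6, 117 and 136.4 CPM in DMSO samples, and the adjudin range lay inside the DMSO range. Its log2 fold change was -0.0083 with an SE of 0.030 and an interval of -0.072 to 0.056, and 5 of 8 batches were higher with adjudin (edgeR adjusted p = 0.911). The sign of this value turned to 0.010 without batch 1. *Keap1* had 55.1, 63.5 and 78 CPM in adjudin samples and 57.4, 61.7 and 72.1 CPM in DMSO samples. The adjudin range covered that of DMSO, and 6 of 8 batches were higher with adjudin. The log2 fold change of *Keap1* was 0.056 with an SE of 0.031 and an interval of -0.0095 to 0.12. The edgeR p was 0.0885 and the adjusted p was 0.318. The ratio of *Nfe2l2* to *Keap1* averaged 1.82 in adjudin samples and 1.90 in DMSO samples, and was lower with adjudin by a mean log2 difference of -0.064 ± 0.13 (SD, 8 batches, exact sign-flip p = 0.219, adjusted p = 0.391).

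The intervals bound what these 8 pairs allow. For 9 of the 10 members the interval lay within 0.2 of 0 on the log2 scale, and for *Slc7a11* it reached 0.38. In *Nfe2l2* a change beyond 4.88% downwards or 3.93% upwards lay outside the interval, and in *Prdx1* a change beyond 3.87% downwards or 5.14% upwards did. In *Txnrd1* the bounds were 2.67% downwards and 5.64% upwards.

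Batches differed in how many members were higher with adjudin. The count was 9 of 10 in batch 6, 8 in batches 1 and 7, 7 in batches 2, 4 and 8, and 5 in batches 3 and 5. The median log2 difference of the members was 0.094 in batch 8, 0.081 in batch 6 and 0.080 in batch 1. It was 0.0057 in batch 3 and -0.0044 in batch 5. The median over all genes tested lay between -0.012 and 0.015 in every batch.

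**Figure D4:**
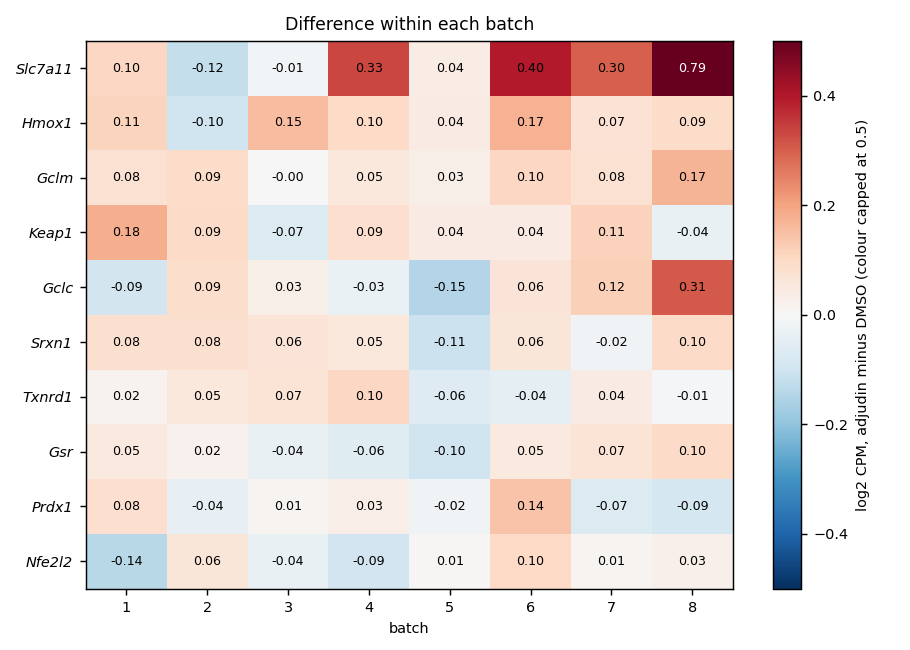
Difference in log2 CPM, adjudin minus DMSO, for each member (rows) and batch (columns), in red where adjudin was higher and in blue where it was lower, with colours capped at 0.5. The deepest red is *Slc7a11* in batch 8 (0.79), followed by *Slc7a11* in batches 6 and 4 and *Gclc* in batch 8 (0.31), while batch 5 holds 5 members with a value below 0.

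Genes with a pattern like that of *Slc7a11* and *Hmox1* were sought by Pearson correlation of log2 CPM over the 16 samples after removal of batch means, among 13722 genes. This amounts to comparing 8 batch differences, and the genes share their libraries. The difference with adjudin was left in, and the r given are the highest among all genes compared. Among the most like *Slc7a11* were *Trim14* (r = 0.955), *Cgnl1* (0.946), *Fbxo32* (0.944) and *F2rl1* (0.940). Of these *Cgnl1* passed the threshold, with a log2 fold change of 0.15 and an adjusted p of 0.0283 (edgeR). That call rests on the same differences by which the gene was picked, so it is not separate evidence. The most like *Hmox1* were *Dusp19* (r = 0.962), *Ivns1abp* (0.939), *Tbl1xr1* (0.926), *Rsrc2* (0.922) and *Zfp783* (0.918). None of these passed the threshold, and *Ivns1abp* had an adjusted p of 0.0572 (edgeR).

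Partners and regulators of NRF2 showed 0 of 14 genes past the threshold in edgeR, with a median log2 fold change of 0.0035 against 0.0032 for all genes. DESeq2 and limma-voom each called 1 of them, and 3 had an unadjusted p under 0.05 in edgeR. Over all genes 5.24% passed the threshold in edgeR, and 21.0% had an unadjusted p under 0.05. The list holds the small MAF proteins, the BACH repressors that compete with NRF2 for its element, the ubiquitin ligase that degrades it and the autophagy receptor gene *Sqstm1*. *Sqstm1*, the most abundant of them, averaged 842.2 CPM with adjudin and 829.5 CPM with DMSO (log2 fold change 0.023, adjusted p = 0.744). *Nfe2l1*, the gene of the related factor NRF1, had the smallest p of the list. It had 437.8, 461.1 and 497.3 CPM in adjudin samples and 424.9, 442.8 and 447.3 CPM in DMSO samples, and was higher with adjudin in 8 of 8 batches. Its log2 fold change was 0.093 with an adjusted p of 0.0739 (edgeR), against 0.0169 in DESeq2 and 0.0422 in limma-voom. *Nfe2l1* also passed in edgeR with library totals (0.0491) and with no filter on low counts (0.0278), and in no other fit. With 1 batch left out its edgeR adjusted p was 0.0562–0.17, and it passed in 0 of 8 such fits. *Mafg*, a dimer partner of NRF2, had a log2 fold change of 0.081 and an adjusted p of 0.121 (edgeR).

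The other NRF2 targets split in direction. Of 28 tested genes out of 30, 2 rose and 2 fell, and the median log2 fold change was -0.017. Over all genes 2.17% rose and 3.07% fell. *Gstm1*, a glutathione transferase, rose, with 55.4, 71.7 and 88.3 CPM in adjudin samples and 49.0, 62.0 and 79.9 CPM in DMSO samples (log2 fold change 0.19, adjusted p = 0.0185). *Abcc4*, which exports organic anions and glutathione conjugates, also rose, with 36.7, 53.5 and 70.1 CPM in adjudin samples and 35.1, 48.2 and 67.5 CPM in DMSO samples (0.17, adjusted p = 0.0119). Both genes were higher with adjudin in 8 of 8 batches, although the groups overlapped. The aldo-keto reductase gene *Akr1b8* fell, with a log2 fold change of -0.16 and an adjusted p of 0.0262, and was lower with adjudin in 8 of 8 batches. *Txn1*, the gene of thioredoxin, fell, with 178.4, 192.9 and 271.7 CPM in adjudin samples and 183.5, 218.3 and 312.2 CPM in DMSO samples (-0.14, adjusted p = 0.0370), lower with adjudin in 7 of 8 batches. The call of *Abcc4* held when each batch was left out in turn, that of *Gstm1* in 5, of *Akr1b8* in 4 and of *Txn1* in 2 of 8 such fits. Without batches 2 and 3 only *Abcc4* passed.

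Further targets are named for their place in the programme. *Nqo1*, the quinone reductase often used as a readout of NRF2, had 9.24, 17.2 and 25.5 CPM in adjudin samples and 7.57, 14.9 and 20.4 CPM in DMSO samples. It was higher with adjudin in 7 of 8 batches, with a log2 fold change of 0.30, an interval of 0.12 to 0.48 and an adjusted p of 0.0527 (edgeR). It passed in DESeq2 (adjusted p = 0.0146), limma-voom (0.0311), with no filter on low counts (2.74e-05), with RLE scaling (0.0476), with library totals (0.0495) and without batch 8 (0.00379), and in no other fit. *Nqo1* is also a target of the aryl hydrocarbon receptor. Of 6 tested genes of that receptor's battery, 2 rose in the reported fit, while 2.17% of all genes rose. DESeq2, limma-voom and edgeR with RLE scaling or library totals each called 3, and 4 passed with no filter on low counts. *Cyp1a1* rose to 7.48–24.3 CPM in adjudin samples, against 2.69–8.48 CPM in DMSO samples, with a log2 fold change of 1.59 (adjusted p = 9.30e-09). *Ahrr*, the gene of the receptor's repressor, rose by 0.67 on the log2 scale (adjusted p = 0.0368), a call that held in 3 of 8 fits with 1 batch left out and not without batches 2 and 3. *Cyp1b1*, the most abundant gene of that list, had a log2 fold change of 0.11 and an adjusted p of 0.359. The most abundant of the other NRF2 targets was *Ftl1*, the ferritin light chain, with 772.5 CPM in adjudin samples and 822.2 CPM in DMSO samples on average (-0.086, adjusted p = 0.118).

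Further genes of the glutathione cycle gave 1 that rose and 3 that fell out of 20, with a median of -0.010. Over all genes 2.17% rose and 3.07% fell. *Gpx8*, a peroxidase of the endoplasmic reticulum, fell, with 28.6, 33.5 and 72.9 CPM in adjudin samples and 35.1, 41.5 and 85.0 CPM in DMSO samples (log2 fold change -0.27, adjusted p = 7.38e-04). It was lower with adjudin in 8 of 8 batches and passed in 8 of 8 fits without a batch and also without batches 2 and 3. *Gpx7*, another peroxidase of the endoplasmic reticulum, and the glutaredoxin gene *Glrx3* fell by 0.24 and 0.13 on the log2 scale, with adjusted p-values of 0.0220 and 0.0253. *Gstz1*, a glutathione transferase of tyrosine breakdown, rose by 0.13 (adjusted p = 0.0394). *Gpx7*, *Glrx3* and *Gstz1* did not pass without batches 2 and 3. *Gpx3*, the most abundant gene of the list, averaged 476.4 CPM with adjudin and 455.9 CPM with DMSO (0.057, adjusted p = 0.597).

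Among 18 other genes of the peroxiredoxin and thioredoxin system, 1 rose and 0 fell, and the median was -0.054. Over all genes 5.24% passed. *Sesn3*, the gene of the stress protein sestrin 3, rose by 0.17 on the log2 scale (adjusted p = 0.0246), higher with adjudin in 7 of 8 batches. It did not pass without batches 2 and 3. *Txnip*, the inhibitor of thioredoxin and the most abundant gene of the list, averaged 244.4 ± 38.7 CPM with adjudin and 254.7 ± 40.1 CPM with DMSO (log2 fold change -0.059, adjusted p = 0.673).

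While 3.07% of all genes fell, enzymes that make or remove superoxide and peroxide gave 5 of 14 that fell. Of this list 0 rose, and the median was -0.14. Among the genes that fell, *Nox4*, *Cyba*, *Ncf1* and *Ncf4* encode a NADPH oxidase and subunits of the oxidase of phagocytes, which make oxidants. *Ncf1* fell most, with 7.25, 9.07 and 10.9 CPM in adjudin samples and 8.26, 13.0 and 16.8 CPM in DMSO samples (log2 fold change -0.49, adjusted p = 0.00318). *Cyba*, the membrane subunit, had 61.4, 66.2 and 71.6 CPM in adjudin samples and 63.0, 77.9 and 90 CPM in DMSO samples (-0.20, adjusted p = 0.00995). *Ncf4* and *Nox4* fell by 0.32 and 0.31 on the log2 scale, each lower with adjudin in 8 of 8 batches. With 1 batch left out, *Ncf1* and *Cyba* passed in 8 of 8 fits, *Ncf4* in 4 and *Nox4* in 2. None of the genes that fell passed without batches 2 and 3, where the adjusted p of *Ncf1* was 0.0561 (edgeR). The phagocyte subunits moved with the macrophage markers given above, and the part of those cells was not tested. The scavengers *Sod1*, *Sod2* and *Cat*, which dispose of superoxide and peroxide, had log2 fold changes of -0.055, 0.045 and 0.051 and did not pass, nor did the most abundant gene of the list, *Selenop* (-0.030, adjusted p = 0.691).

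Genes regulated like *Slc7a11* or *Hmox1* by other routes were also read. *Slc7a11* is a target of ATF4, the factor of the amino acid response. Over all genes 5.24% passed, and of 18 genes of that response 1 rose and 0 fell, with a median of 0.044. The gene that rose was *Vldlr*, a lipoprotein receptor, with 57.3, 63.3 and 71.0 CPM in adjudin samples and 46.6, 54.6 and 65.5 CPM in DMSO samples (log2 fold change 0.19, adjusted p = 0.00947). It passed in 8 of 8 fits without a batch and without batches 2 and 3. *Atf4* itself averaged 344.3 CPM with adjudin and 347.3 CPM with DMSO (-0.012, adjusted p = 0.856), and *Nupr1*, the most abundant gene of the list, differed by a log2 value of -0.16 (adjusted p = 0.149). Of 9 genes of heme and iron handling, a list that includes targets of BACH1, 0 passed in edgeR, DESeq2 or limma-voom. An unadjusted p under 0.05 in edgeR was reached by 2 of them, with lower levels with adjudin, and by 21.0% of all genes. *Hmox2*, the constitutive heme oxygenase, averaged 46.0 CPM with adjudin and 45.9 CPM with DMSO (0.0065, adjusted p = 0.943).

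**Figure D5:**
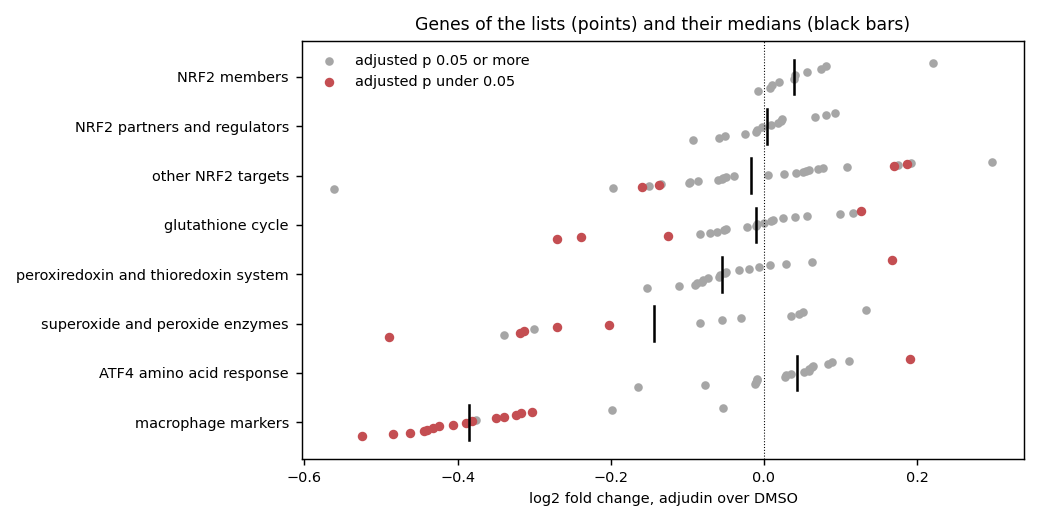
Log2 fold change, adjudin over DMSO, of every tested gene in the members' list, 6 related lists and the macrophage markers, with black bars for the medians and red points for genes with an adjusted p under 0.05. The 10 members show no red point and a median of 0.040, whereas 15 of 18 macrophage markers are red with a median of -0.39.

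As the strand setting of the counting is not given in the sources used here, reads of a member and of a gene that overlaps it cannot be told apart. The largest overlapping gene by counts, relative to its member, was the antisense gene *Gm16754* at *Keap1*, with 0.783% of the counts of *Keap1*. Members lie on chromosomes 2, 3, 4, 8, 9 and 10 of GRCm38. *Nfe2l2* is at chr2:75675513-75704641 and *Slc7a11* at chr3:49892526-50443614, both on the minus strand. *Hmox1* is at chr8:75093621-75100589 and *Gclm* at chr3:122245557-122270732, both on the plus strand.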

How the data were processed

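The authors sequenced poly(A)-selected RNA in paired ends of 150 nucleotides, aligned reads to GRCm38/mm10 with HISAT2 2.0.5 and counted them with featureCounts 1.5.0-p3. They deposited raw counts per gene for 16 samples. Which annotation release and which strand setting the counting used is not given in the sources used here.

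Counts were tested with edgeR 4.0.16 (R 4.3.3, limma 3.58.1) using filterByExpr, TMM scaling, batch and treatment as terms, and the quasi-likelihood test with Benjamini–Hochberg adjustment over 16910 genes and a threshold of 0.05. Intervals are 95% and use the test's degrees of freedom. log2 CPM had a prior count of 2. The script was tested on simulated counts. Batch numbers come from the labels. Deviations of samples with the same number correlated at 0.37–0.69 (median of other pairs -0.18), so batch was kept as a pairing term. No 2 libraries of a group agreed within counting noise. Ratios of 2 genes were tested with an exact sign-flip test over 8 batches. Alternatives were DESeq2 1.42.0, limma-voom, other scalings and filters, no pairing, and each batch left out. The fit without batches 2 and 3 was chosen after seeing the data. The members and the gene lists were chosen with earlier results of these data known. Genes named were all members, list genes past the threshold, the most abundant gene of each list, and the 5 genes most like *Slc7a11* and *Hmox1*, except for a few genes that are not reported here. *Slc3a2*, *Nqo1*, *Mafg*, *Nfe2l1*, *Sod1*, *Sod2*, *Cat*, *Atf4* and *Hmox2* were added after their values were seen.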

Additional observations from a re-analysis of the deposited data

How the results depend on the processing

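The 10 members were refitted under 17 alternatives. Of the 170 values, 164 kept direction and side of the threshold, 5 turned sign and 1 passed the threshold. That one was *Slc7a11* with no filter on low counts, where 1 member passed, with a log2 fold change of 0.23. The cause was not tested. The sign turned for *Prdx1* with upper-quartile scaling (-0.00072) and, with 1 batch left out, for *Prdx1* (range -0.0087 to 0.025, below 0 without batch 1 or 6) and *Nfe2l2* (range -0.021 to 0.010, above 0 without batch 1 or 4). Without a batch, *Slc7a11* ranged between 0.15 and 0.27 with adjusted p of 0.0659–0.206.

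Over all genes 886 passed. Without the replicate block 1 gene passed (590 at an unadjusted p under 0.05, 0 of them members). Without the filter on low counts 1577 passed, of which 52.4% rose, against 41.4% in the reported fit. Without batches 2 and 3, 257 passed, and with 1 batch left out 412–1071 (548 where that was batch 2, 459 for batch 3, 412 for batch 4, 473 for batch 8). The ratio of *Slc7a11* to *Slc3a2* was 0.34 without batches 2 and 3, the batches where it was lower with adjudin, and 0.15–0.29 with 1 batch left out, with 0.29 without batch 2. Of 40 recomputed values of the 4 ratios, 38 kept direction and side of an unadjusted sign-flip p of 0.05, and 0 turned sign. Those that fell under 0.05 were *Slc7a11* to *Slc3a2* without batch 2 and without batches 2 and 3. Without the replicate block no gene of any list passed. With 1 batch left out, 1–4 of the other NRF2 targets, 1–4 glutathione genes, 0–2 of the peroxiredoxin and thioredoxin system and 2–6 superoxide and peroxide enzymes passed, and without batches 2 and 3 these were 1, 1, 1 and 0. With 8 pairs, differences of a few per cent in single genes are at the limit of what can be told from the spread between batches.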
